A study of Mus musculus with 15 samples.

Results

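Smooth muscle and pericyte contractile genes were followed through the bulk RNA-seq of cultured bone marrow endothelial cells (BMECs). The group holds 9 genes, Acta2, Actg2, Tagln, Cnn1, Lmod1, Myh11, Des, Cspg4 and Rgs5, chosen by their symbols from the 44674 genes of the deposited count table, in which each symbol occurs once. Of these genes, 9 of 9 passed the filter on low counts that left 19401 genes for testing. Levels are given as CPM, a gene's counts per 1000000 counts of the library, and a mean is followed by its SD over the libraries.

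The 15 libraries fall into 8 conditions. P0 Emcn+ BMECs and P0 Emcn- BMECs were sorted by the surface sialomucin Emcn (endomucin) from primary whole marrow cultures, and Emcn- cells came from lung cultures and from marrow cultures of passages P1, P2, P3 and P4. By the methods these were tdTomato+ CD45- cells of tamoxifen-treated Tie2-CreERT2;Rosa26-tdTomato mice of 4 to 6 months, in which the Tek promoter drives the recombinase, grown in EGM-2 medium, usually with 1 mouse per dish. The MSC libraries came from marrow mesenchymal stromal cells of Osx-Cre;Rosa26-tdTomato mice, so the Cre driver and the culture differ together from the other conditions while the reporter allele is shared. The labels give the genotype of all libraries as WT and mark 4 batches. Batches a and d hold the P0 and lung libraries, batch b holds replicate 1 of P1 to P4, and batch c holds replicate 2 of P1 to P3 and both MSC libraries. P4 has 1 library, and the other conditions have 2. The labels do not tie libraries to animals, while the methods describe independent primary cultures as begun from different animals. Whether the libraries of successive passages came from the same cultures is not given in the sources used here, and p-values measure the spread between these libraries.

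Smooth muscle cells and pericytes wrap the endothelial tube and set its calibre by contraction. Their contractile apparatus is built from muscle isoforms of actin and myosin with actin-binding proteins that organise or restrain them. Serum response factor (SRF) with its coactivators myocardin and the myocardin-related factors switches on many of these genes through a DNA element called the CArG box. Fibroblasts and stromal cells in culture can also express Acta2 and Tagln, so no single gene of the group marks a smooth muscle cell.

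The labelled cell types were compared with their markers. P0 Emcn+ BMECs carried the endothelial genes at high level, with Cdh5 (VE-cadherin, the endothelial junction protein) at 6222 and 5118 CPM and Pecam1 (another junction protein) at 2474 and 2264 CPM. The P0 Emcn- libraries held 119 and 6.35 CPM of Cdh5, in passaged cells it was at 2.33 CPM or lower, and the lung libraries held 39.5 and 171 CPM. The summed level of 12 endothelial genes was 11408 to 13421 CPM in P0 Emcn+ BMECs and 79.4 to 359 CPM in P0 Emcn- BMECs. The sum of 10 fibroblast genes (collagens, Pdgfra and others) ran the other way, from 4441 to 5752 CPM in P0 Emcn+ BMECs and from 30920 to 32269 CPM in P0 Emcn- BMECs. Endothelial genes also separated replicates of 1 condition. Of 12 such genes, 11 were at least 2-fold higher in P0 Emcn- replicate 1 than in replicate 2, 8 were higher in lung replicate 2, and 11 were higher in MSC replicate 2. In P0 Emcn- and in lung, 1 gene each went the other way. The share of all genes that differed 2-fold between replicates is not given here. Library totals, rounded to 6 significant digits, ran from 9914620 to 39718800 counts, and 3 counts, the limit that a count of 0 allows, were worth 0.0755 to 0.3026 CPM. These limits and the counting intervals given for sparse genes cover counting error only. In bulk libraries, fewer cells of a type and less RNA per cell cannot be told apart.

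**Figure D1:**
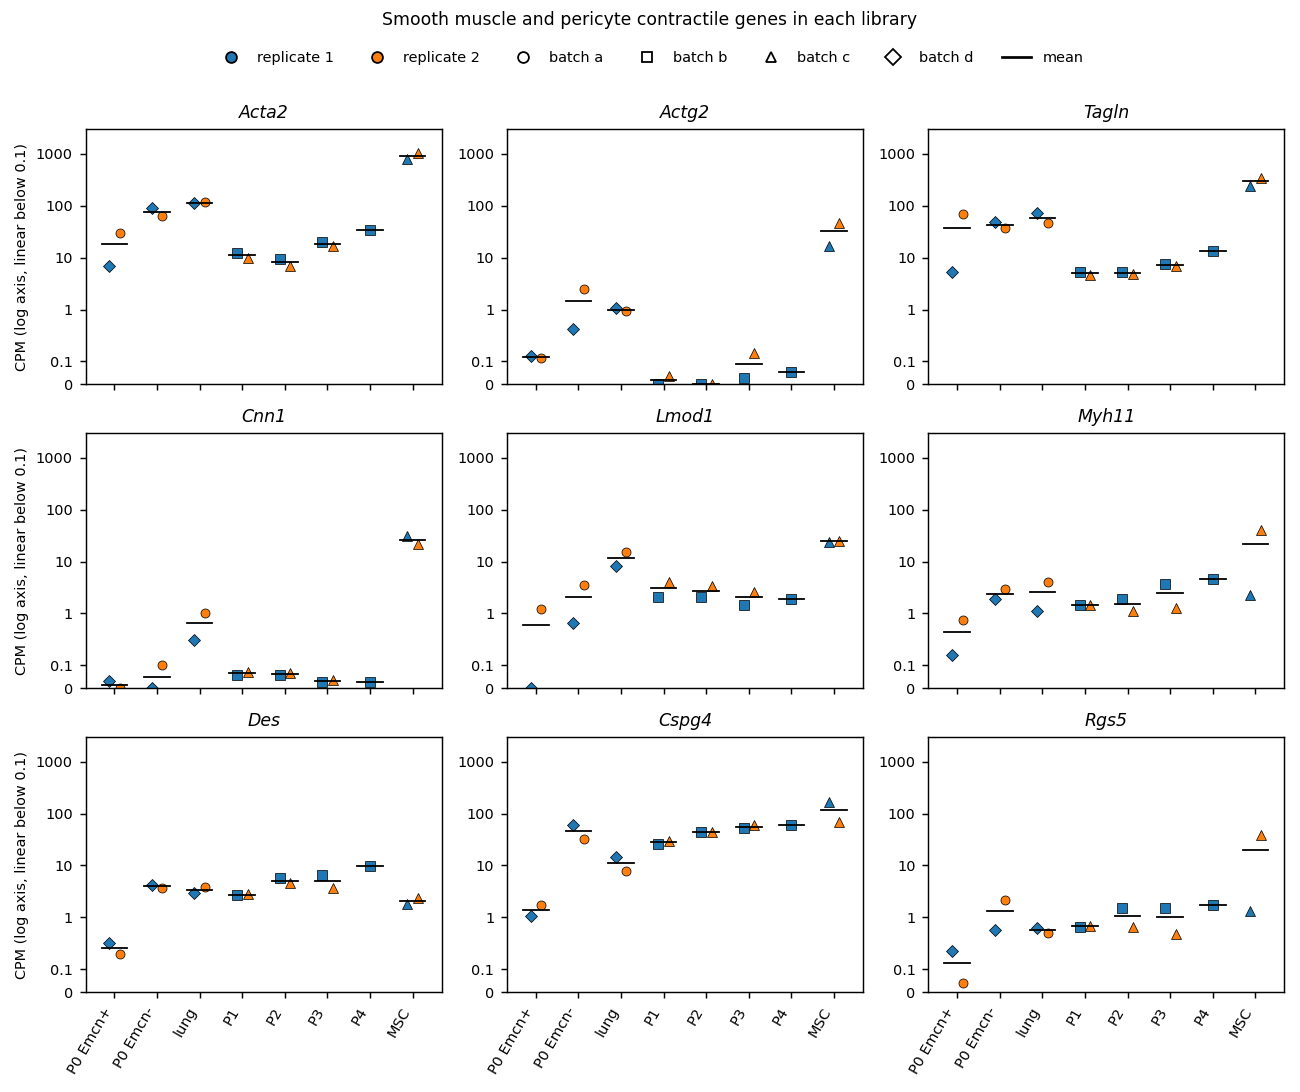
CPM of each of the 9 genes (vertical axis, logarithmic above 0.1) in every library of the 8 conditions (horizontal axis), with colour for the replicate, symbol for the batch and a line at the condition mean. Acta2 and Tagln reached 1035 and 348 CPM in MSC, Cnn1 and Actg2 were close to 0 in passaged cells, and Myh11 and Rgs5 were high in MSC replicate 2 alone.

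Acta2 encodes smooth muscle alpha-actin and lies on chromosome 19, 34241090 to 34255590 on the minus strand of GRCm38. Its promoter is shown because it held the only CArG-like sequences found in the group. Of the 9 genes, 6 had a promoter in the RefSeq table for GRCm38.p6, which spans 250 bases before to 50 after the start (Acta2, Cnn1, Lmod1, Des, Cspg4, Rgs5). Myh11, Tagln and Actg2 have none in that table. The strict CArG box reads the same on both strands and occurred in 0 of 6 of these promoters and in 1.63% of all 32851 promoters. With 1 other letter allowed in its central A/T stretch, it occurred in Acta2 alone among the 6 and in 9.98% of all promoters. The Acta2 window, chr19:34255324-34255623 on the minus strand and printed 5′ to 3′, has both boxes in capitals, with their first bases at -84 and -34 from the start. This is the start of the RefSeq table. The gene span given above reaches farther upstream, so both boxes lie inside that span.
Acta2: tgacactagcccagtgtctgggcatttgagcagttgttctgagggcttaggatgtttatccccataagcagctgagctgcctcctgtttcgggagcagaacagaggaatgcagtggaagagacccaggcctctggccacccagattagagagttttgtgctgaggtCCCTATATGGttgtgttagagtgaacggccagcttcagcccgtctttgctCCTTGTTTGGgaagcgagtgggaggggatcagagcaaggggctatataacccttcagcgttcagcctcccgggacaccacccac
A match says that these letters are present in the window, and binding there was not measured.

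The first question of the design was how Emcn+ and Emcn- BMECs sorted from primary marrow cultures differ. Of the 9 genes, 4 were lower in P0 Emcn+ BMECs (Acta2, Actg2, Des and Cspg4), where 11.4% of all tested genes were called lower and 7.79% higher. None of the other 5 had an unadjusted p under 0.05. A gene was called when the adjusted p was under 0.05 and the log2 fold change beyond 1.5. The median log2 fold change of the 9 genes was -2.40, against -0.06 over all genes tested. The Emcn- libraries also held the higher summed fibroblast and the lower summed endothelial levels given above, and the summed level of 10 macrophage genes was 231 to 257 CPM in them against 785 to 940 CPM in Emcn+ libraries. The part of these cell types in the result was not tested.

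Cspg4 encodes the NG2 proteoglycan, a surface marker of pericytes that some mesenchymal progenitors share, and lies on chromosome 9, 56865033 to 56899870, plus strand. The Emcn+ libraries held 1.05 and 1.70 CPM and the Emcn- libraries 60.1 and 31.9 CPM, replicate 1 first. Both Emcn- libraries lay far above both Emcn+ libraries, and each of the 2 batches held 1 library of each kind. The log2 fold change was -5.05 ± 0.55 (SE, 95% interval -6.27 to -3.83, edgeR quasi-likelihood test, Benjamini-Hochberg adjusted p = 7.94e-05).

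Des encodes desmin, the muscle intermediate filament that pericytes also carry (chromosome 1, 75360329 to 75368579, plus strand). It was at 0.317 and 0.193 CPM in P0 Emcn+ BMECs and at 4.28 and 3.73 CPM in P0 Emcn- BMECs. The replicates lay close together and the groups did not overlap. Its log2 fold change was -3.91 ± 0.41 (SE, edgeR adjusted p = 6.95e-05).

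Acta2 itself was at 7.00 and 29.9 CPM in P0 Emcn+ BMECs and at 89.1 and 62.2 CPM in P0 Emcn- BMECs. As a ratio, the Emcn+ replicates differed more from each other than the Emcn- replicates did, and the groups did not overlap. Its log2 fold change was -2.02 ± 0.51 (SE, edgeR adjusted p = 0.0123). Leaving out replicate 1 of the Emcn+ cells brought it to -1.30, within the fold limit, and leaving out replicate 1 of the Emcn- cells to -1.71, short of the adjusted p. The fit on the compared conditions alone (-1.99) did not call it either.

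Actg2, the enteric smooth muscle actin on chromosome 6 (83512905 to 83536265, minus strand), was at 0.127 and 0.116 CPM in P0 Emcn+ BMECs and at 0.428 and 2.52 CPM in P0 Emcn- BMECs. Replicate 2 of the Emcn- cells held most of the signal. Its log2 fold change was -3.33 ± 1.03 (SE, edgeR adjusted p = 0.033). The call was lost without replicate 2 of the Emcn- cells (-1.75), without either Emcn+ library (-3.38 and -3.26) and on the compared conditions alone (-3.39).

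The actin-binding genes gave no call. Tagln (transgelin, an early smooth muscle actin-bundling protein on chromosome 9, 45929619 to 45936058, minus strand) was at 5.29 and 70.8 CPM in the Emcn+ libraries and at 48.1 and 37.7 CPM in the Emcn- libraries. The Emcn+ libraries enclosed the Emcn- ones, and the log2 fold change was -0.16 ± 0.77 (SE, edgeR adjusted p = 0.933). Without Emcn+ replicate 2 the same fit gave -2.98 and called Tagln lower. Lmod1 (leiomodin, which nucleates actin filaments, on chromosome 1, 135324807 to 135368065, plus strand) was at 0 and 1.20 CPM in P0 Emcn+ BMECs and at 0.655 and 3.53 CPM in P0 Emcn- BMECs. Its groups overlapped, and the log2 fold change was -1.67 ± 1.16 (SE, edgeR adjusted p = 0.311). Without replicate 2 of the Emcn+ cells, the only one with a count, it was called lower. Cnn1 (calponin, an inhibitor of actin-activated myosin on chromosome 9, 22099216 to 22109630, plus strand) had 1 count in each group, both under 3 counts, and no fold is given.

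Myh11, the smooth muscle myosin heavy chain (chromosome 16, 14194535 to 14291372, minus strand), was at 0.158 and 0.734 CPM in P0 Emcn+ BMECs and at 1.91 and 2.92 CPM in P0 Emcn- BMECs. The groups did not overlap, but the difference of -2.40 ± 1.27 (log2, SE) did not pass (edgeR adjusted p = 0.18). Rgs5, a regulator of G-protein signalling found in pericytes (chromosome 1, 169655501 to 169695813, plus strand), was at 0.222 and 0.0386 CPM against 0.579 and 2.12 CPM. Its groups did not overlap either, and its log2 fold change of -3.09 ± 1.54 (SE, edgeR adjusted p = 0.156) did not pass, while DESeq2 called it lower (-3.24).

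The wider contractile and pericyte genes were divided. Among 25 other contractile and cytoskeletal genes, 9 were higher and 7 lower in P0 Emcn+ BMECs, with a median log2 fold change of 0.77 over the 24 tested. The called genes with the highest level were all higher, namely Tpm1 (tropomyosin, 1.60), Actn1 (alpha-actinin, 1.96), Csrp1 (2.38) and Smtn (smoothelin, 2.16). Tpm2 (-3.79) and Myl9 (the regulatory light chain, -1.73), named after their values were seen, were lower. Of 16 other pericyte genes, 11 were lower and 3 higher. Pdgfrb, the platelet-derived growth factor receptor that pericytes need, was at 16.2 and 9.82 CPM in P0 Emcn+ BMECs and at 1077 and 537 CPM in P0 Emcn- BMECs (log2 fold change -5.92, edgeR adjusted p = 9.1e-06). Cd248 (-6.35) and Steap4 (-6.19) were lower too. The 3 higher genes were Mcam (4.70), an adhesion molecule that endothelium also carries, and Abcc9 (5.07) and Kcnj8 (6.17), the subunits of a potassium channel, the last 2 named after their values were seen.

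**Figure D2:**
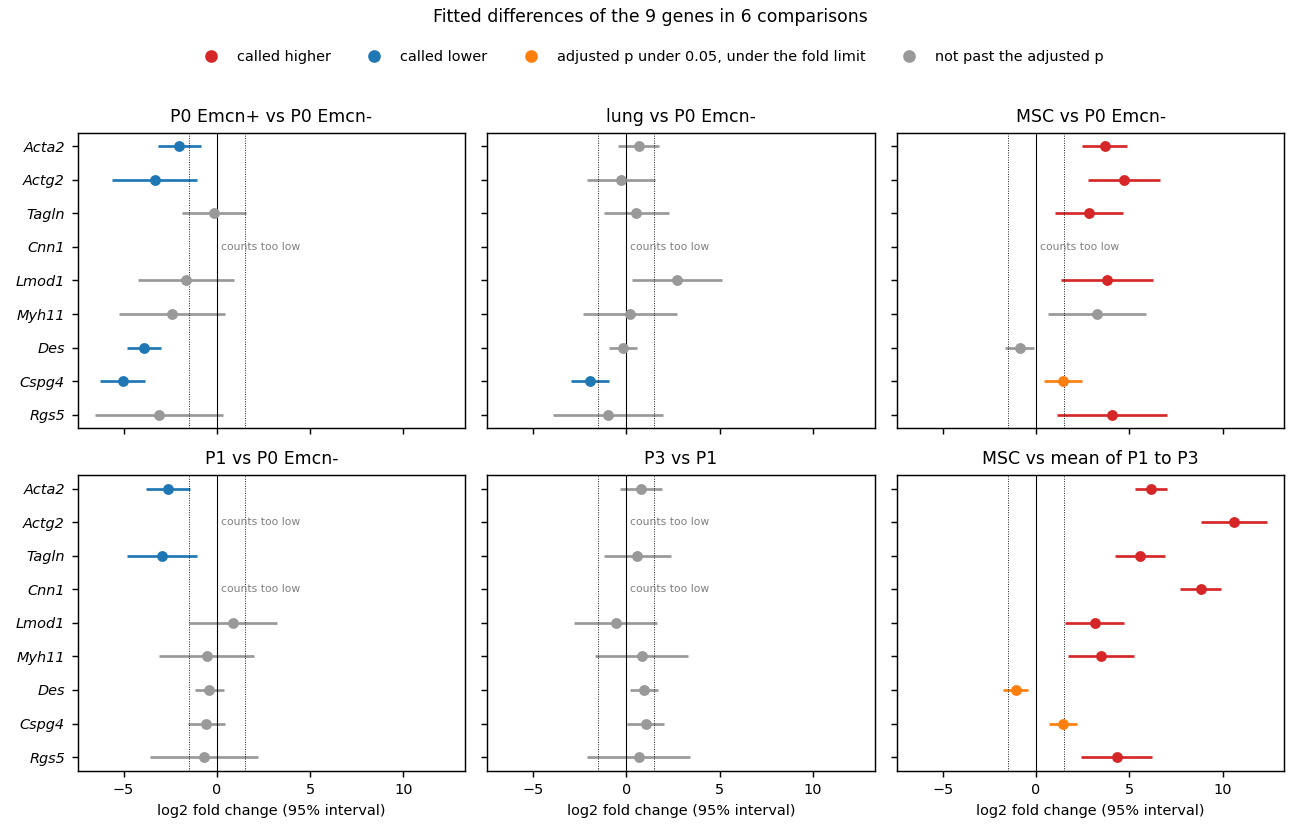
Fitted log2 fold changes (horizontal axis, with 95% intervals) of the 9 genes (vertical axis) in the 6 comparisons, coloured by call, with dotted lines at the fold limit of 1.5. Genes with 3 counts or fewer in a group are left out. Called genes lie below 0 in P0 Emcn+ and P1 against P0 Emcn- and above 0 in both MSC comparisons.

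The second comparison set the lung Emcn- cultures against P0 Emcn- BMECs, which share batches a and d. Of the 9 genes, 1 was called higher (Cnn1) and 1 lower (Cspg4), where 2.13% of all genes tested were called higher and 1.7% lower. The median log2 fold change was 0.17, against 0.00 over all genes.

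Cspg4 was at 14.7 and 7.84 CPM in the lung libraries, below both P0 Emcn- libraries (60.1 and 31.9 CPM), with a log2 fold change of -1.95 ± 0.46 (SE, edgeR adjusted p = 0.0373). Its call was lost without either lung library (-2.52 and -1.57), without replicate 1 of the P0 Emcn- cells (-1.41) and on the compared conditions alone (-1.96). Cnn1 had 33 counts in lung (0.304 and 1.01 CPM) and 1 count in P0 Emcn- BMECs, a ratio of 28.3 with an exact 95% counting interval of 4.74 to 1151 (edgeR adjusted p = 0.0307). It was low in lung too, and its call did not survive leaving out replicate 2 of lung or replicate 1 of the P0 Emcn- cells.

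Lmod1 was at 8.26 and 15.4 CPM in lung, above the 0.655 and 3.53 CPM of the P0 Emcn- libraries in each batch. The log2 fold change of 2.71 ± 1.07 (SE) did not pass (edgeR adjusted p = 0.213), while the fit with the replicate block, which uses the pairing by batch, gave 3.05 and called it higher. Acta2 was at 111 and 118 CPM, above both P0 Emcn- libraries, with a log2 fold change of 0.66 ± 0.49 (SE, 95% interval -0.44 to 1.76) that did not pass. Tagln, Myh11, Des, Rgs5 and Actg2 were within 1.01 log2 units of P0 Emcn- BMECs, with intervals that included 0. The widest was that of Rgs5, from -3.96 to 1.94.

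Of the 25 other contractile genes, 7 were higher in lung, and 4 more passed the adjusted p in the same direction within the fold limit. Fhl1 (2.40), Fhl2 (1.65), Irag1 (Mrvi1 in the file, 2.00) and Itga8 (4.69) had the highest levels among the called genes. Among the 16 other pericyte genes 2 were lower, the receptor Notch3 (-1.65) and the matrix protein Vtn, which was at 0.0828 and 0.184 CPM in lung and 1.89 and 7.06 CPM in P0 Emcn- BMECs. Macrophage genes moved with this comparison, with 7 of 10 lower in lung and a summed level of 22.3 to 25.05 CPM in lung against 231 to 257 CPM in P0 Emcn- BMECs. Their part in the result was not tested.

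MSC held the highest condition mean for 8 of the 9 genes, the exception being Des. Against P0 Emcn- BMECs, 6 of the 9 genes were called higher (Acta2, Tagln, Cnn1, Lmod1, Rgs5 and Actg2), where 11.3% of all genes tested were called higher and 7.45% lower. Their median log2 fold change was 3.68, against 0.01 over all genes. Batch, Cre driver, medium and cell type cannot be told apart in this comparison. A comparison with the mean of P1, P2 and P3, whose replicate 2 shares batch c with MSC, called 7 of the 9 higher (the same 6 and Myh11), where 8.42% of all genes were called higher and 5.81% lower. Macrophage genes were lower in MSC, 8 of 10 against P0 Emcn- BMECs and 4 of 10 against passaged cells. Of 12 endothelial genes 8 were higher and 2 lower in MSC than in passaged cells, with a summed level of 45.0 to 388 CPM in MSC and 68.1 to 103 CPM in P1 to P3. Of 10 fibroblast genes 4 were higher and 1 lower, with 32797 to 43020 CPM in MSC and 22670 to 33130 CPM in P1 to P3. The part of these cell types in the result was not tested.

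Acta2 was at 789 and 1035 CPM in MSC, against 6.83 to 20.3 CPM in the 6 libraries of P1 to P3. No passaged library came near either MSC library. It was higher by 6.16 ± 0.39 (log2, SE, edgeR adjusted p = 8.26e-06) against passaged cells, 6.38 within batch c alone, and 3.68 ± 0.55 (SE, edgeR adjusted p = 0.000873) against P0 Emcn- BMECs.

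Actg2 was at 16.7 and 47.3 CPM in MSC. In the 6 libraries of P1 to P3 it was between 0 and 0.148 CPM, with 6 counts in all. The MSC libraries held 2149 counts together. The difference from passaged cells passed (edgeR adjusted p = 3.73e-05), and no fold is given because both P2 libraries had a count of 0. Against P0 Emcn- BMECs the log2 fold change was 4.70 ± 0.86 (SE, edgeR adjusted p = 0.00337). With the replicate block the latter was 3.78 and was no longer called.

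Tagln was at 240 and 348 CPM in MSC and at 4.66 to 7.59 CPM in P1 to P3. The groups lay far apart, with a log2 fold change of 5.58 ± 0.60 (SE, edgeR adjusted p = 0.000144). Against P0 Emcn- BMECs it was 2.86 ± 0.82 (SE, edgeR adjusted p = 0.0225), and this call was lost without replicate 2 of MSC (2.59) or without either P0 Emcn- library (2.67 and 3.04).

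Cnn1 was at 30.9 and 22.0 CPM in MSC and at 0.0282 to 0.0717 CPM in P1 to P3, with a log2 fold change of 8.83 ± 0.50 (SE, edgeR adjusted p = 4.73e-06). Of the 8 conditions, MSC alone had more than 1.01 CPM in any library. Against P0 Emcn- BMECs the counts were 1825 and 1, a ratio of 1323 with an exact 95% counting interval of 237 to 52273 (edgeR adjusted p = 5.85e-05). Lmod1 was at 23.6 and 25.2 CPM in MSC and at 1.47 to 4.09 CPM in P1 to P3 (log2 fold change 3.16 ± 0.71, SE, edgeR adjusted p = 0.00777). Both replicates stood above every passaged library. Against P0 Emcn- BMECs its log2 fold change was 3.79 ± 1.11 (SE, edgeR adjusted p = 0.024), and that call was lost without either MSC library or replicate 1 of the P0 Emcn- cells.

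Myh11 and Rgs5 rested on 1 library. Myh11 was at 2.22 CPM in MSC replicate 1 and 41.1 CPM in replicate 2, and in P1 to P3 it ran from 1.09 to 3.61 CPM. Rgs5 was at 1.32 and 38.1 CPM in MSC replicates 1 and 2 and at 0.481 to 1.52 CPM in P1 to P3. In both cases MSC replicate 1 lay within the range of the passaged libraries. Myh11 was called against passaged cells (log2 fold change 3.50 ± 0.80, SE, edgeR adjusted p = 0.00803) and was at 0.27 without MSC replicate 2, and against P0 Emcn- BMECs it was 3.26 (adjusted p = 0.055 by edgeR, called with the replicate block at 3.61) and 0.01 without that library. The log2 fold change of Rgs5 was 4.32 ± 0.85 (SE, edgeR adjusted p = 0.00392) against passaged cells and 4.07 (edgeR adjusted p = 0.0362) against P0 Emcn- BMECs, and without MSC replicate 2 these were 0.48 and 0.19 and neither was called. The second call was also lost without either P0 Emcn- library (5.11 and 3.27) and on the compared conditions alone (4.08). Within batch c alone, neither Myh11 (4.01) nor Rgs5 (4.93) was called against passaged cells.

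The same library held more of most listed endothelial genes and of some other pericyte genes. The share of all genes that differed 2-fold between the 2 MSC libraries is not given here. Of 12 endothelial genes, 11 were at least 2-fold higher in MSC replicate 2 than in replicate 1, and their summed level was 45.0 CPM in replicate 1 and 388 CPM in replicate 2. Cdh5 was at 7.86 and 156 CPM and Pecam1 at 15.02 and 101 CPM. Among the 15 other pericyte genes with at least 1 CPM in either MSC library, 6 were at least 2-fold higher in replicate 2. In replicate 1, 1 of them was at least 2-fold higher. Those higher in replicate 2 included Mcam (13.4 and 64.0 CPM), Abcc9 (1.09 and 16.1 CPM), Kcnj8 (0.674 and 3.38 CPM) and Trpc6 (0.449 and 4.35 CPM), chosen after their values were seen. Of these, Mcam, Abcc9 and Kcnj8 were the 3 other pericyte genes called higher in P0 Emcn+ BMECs, where 11 were called lower. The part of the source cells of these endothelial and pericyte genes in the levels of Myh11 and Rgs5 was not tested.

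**Figure D3:**
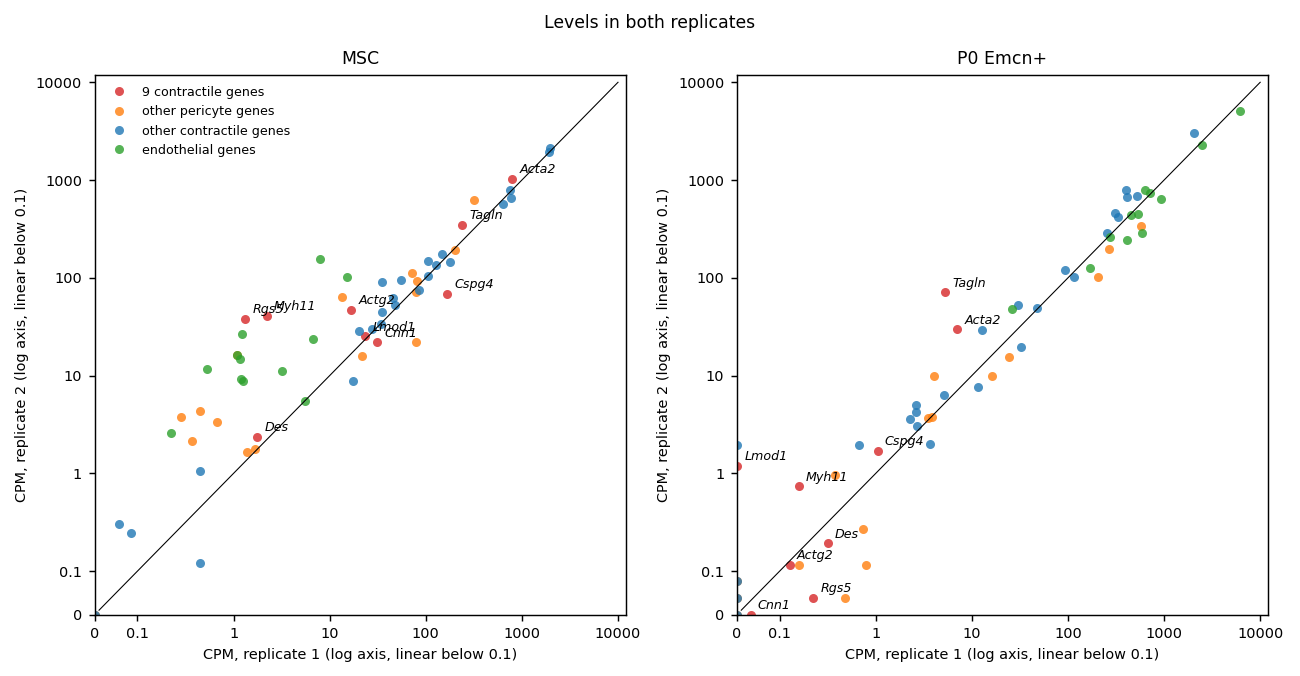
CPM in replicate 1 (horizontal axis) and replicate 2 (vertical axis) of MSC (left) and P0 Emcn+ BMECs (right), both axes logarithmic above 0.1, with a line of equality. Red points are the 9 contractile genes and the other colours are the other pericyte, other contractile and endothelial genes. Rgs5, Myh11 and 11 endothelial genes lie above the line in MSC, and Tagln and Acta2 lie above it in P0 Emcn+ BMECs.

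Cspg4 and Des were the 2 genes that were not called in either MSC comparison. Cspg4 was at 165 and 68.9 CPM, above every passaged library (25.8 to 59.8 CPM in P1 to P3). Its adjusted p passed but its size stayed within the fold limit, at a log2 fold change of 1.43 ± 0.33 (SE, edgeR adjusted p = 0.00927) against passaged cells and 1.44 ± 0.45 (SE, edgeR adjusted p = 0.0305) against P0 Emcn- BMECs. Without MSC replicate 2 it was called in both (1.94 and 1.95), and without replicate 1 of the P0 Emcn- cells it was called against those (1.98). Without MSC replicate 1 the differences were 0.62 and 0.64 and passed in neither (edgeR adjusted p = 0.266 and 0.295), and without replicate 2 of the P0 Emcn- cells the difference from those was 1.04 and did not pass (adjusted p = 0.157). On the compared conditions alone the difference from P0 Emcn- BMECs did not pass (adjusted p = 0.132), nor did that from passaged cells within batch c (adjusted p = 0.129). Cspg4 was higher in the replicate in which Myh11 and Rgs5 were lower. Des was at 1.77 and 2.37 CPM in MSC, below every library of P1 to P3 (2.68 to 6.49 CPM). It passed the adjusted p in the lower direction, with a log2 fold change of -1.10 ± 0.29 (SE, edgeR adjusted p = 0.0176), but stayed within the fold limit. The pass was lost without MSC replicate 1 (-0.93), without MSC replicate 2 (-1.30) and within batch c alone (-0.87). Against P0 Emcn- BMECs the log2 fold change of Des was -0.87 and did not pass (edgeR adjusted p = 0.0743).

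Of the 25 other contractile genes, 11 were higher in MSC than in P0 Emcn- BMECs, and those at the highest levels were Cald1 (caldesmon, 2.14), Vcl (vinculin, 1.85), Actn1 (2.28) and Tpm1 (1.66). Against passaged cells 9 were higher and 1 lower, and the same 4 genes led with 1.84, 1.73, 2.48 and 2.55. The other pericyte genes were mixed against P0 Emcn- BMECs, where 2 were higher (Rgs4, 2.46, and Trpc6, 4.28) and 2 lower, among them Steap4 (-1.63). Against passaged cells 8 were higher and 1 was lower. The osteolineage genes, which mark the bone-forming cells that Osx-Cre labels, were higher in MSC for 3 of 8 genes against P0 Emcn- BMECs and for 5 of 8 against passaged cells. Their summed level did not follow these counts. It was 2495 to 3614 CPM in MSC, 782 to 2502 CPM in P0 Emcn- BMECs and 1450 to 1784 CPM in P1. In P2 it was 2982 to 3375 CPM, in P3 5412 to 5615 CPM and in P4 4682 CPM, so P3 and P4 lay above MSC.

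Passaging was examined in the Emcn- marrow cultures. From P0 to P1, 3 of the 9 genes fell (Acta2, Tagln and Actg2), where 3.07% of all genes tested were called lower and 5.77% higher. The other 6 had no unadjusted p under 0.05. The median log2 fold change was -0.58, against 0.02 over all genes. P0 and P1 share no batch, so batch and passage cannot be told apart here. The calls rested on few libraries. With either P1 library left out none of the 3 genes was called, without replicate 1 of the P0 Emcn- cells only Actg2 was, and without their replicate 2 the call of Tagln was lost.

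Acta2 was at 89.1 and 62.2 CPM in P0 Emcn- BMECs and at 12.2 and 9.97 CPM in P1, with a log2 fold change of -2.61 ± 0.53 (SE, edgeR adjusted p = 0.00968). Tagln went from 48.1 and 37.7 CPM to 5.32 and 4.66 CPM, a difference on the log2 scale of -2.95 ± 0.85 (SE, edgeR adjusted p = 0.0398). For both genes the P1 replicates lay close together and far below P0. Actg2 had 42 counts in P0 Emcn- BMECs and 1 in P1, a ratio of P1 to P0 of 0.0192 with an exact 95% counting interval of 0.000475 to 0.113 (edgeR adjusted p = 0.0208). On the compared conditions alone it was not called.

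Cspg4 (-0.58), Des (-0.40), Myh11 (-0.55), Rgs5 (-0.71) and Lmod1 (0.85) did not pass from P0 to P1. Their 95% intervals all included 0, and those of Cspg4 (-1.56 to 0.41) and Des (-1.16 to 0.36) were the narrowest. Cnn1 had 1 count in P0 Emcn- BMECs and 4 in P1. Of the other contractile genes 3 were higher, among them Fhl1 (1.84) and Itga8 (3.08), while 4 more (Myl9, Tpm1, Smtn and Pdlim7, named after their values were seen) passed the adjusted p in the lower direction within the fold limit. Among the other pericyte genes 5 were lower, with Notch3 (-1.85), Ndufa4l2 (-4.49), Mcam (-4.16) and Heyl at the highest levels. Heyl, a target of Notch signalling, went from 11.7 and 4.24 CPM to 0.0297 and 0 CPM. The fibroblast genes moved too, with 4 of 10 lower in P1, among them Col1a1 (2891 to 5783 CPM in P0 and 469 to 647 CPM in P1), and their part in the result was not tested.

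Between P1 and P3, edgeR called 0 of the 9 genes, where 0.0773% of all genes were called higher and 0.144% lower. DESeq2 and DESeq2 with ashr shrinkage also called 0, and 2 of the 9 had an unadjusted p under 0.05, Des and Cspg4. Cspg4 was at 25.8 and 30.0 CPM in P1, 44.3 and 44.7 CPM in P2, 52.4 and 59.8 CPM in P3 and 59.0 CPM in P4. Within each batch it was higher at every later passage up to P3, and the log2 fold change from P1 to P3 was 1.04 ± 0.44 (SE, 95% interval 0.06 to 2.03, edgeR adjusted p = 0.342). On the compared conditions alone it was 1.05 and passed the adjusted p (edgeR adjusted p = 0.0439), within the fold limit. Des was at 2.68 and 2.80 CPM in P1, 5.66 and 4.51 CPM in P2, 6.49 and 3.70 CPM in P3 and 9.60 CPM in P4. In batch b it was higher at each later passage, in batch c it was highest in P2, and the log2 fold change from P1 to P3 was 0.94 ± 0.34 (SE, edgeR adjusted p = 0.265).

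Acta2 was lowest in P2, at 9.45 and 6.83 CPM, and was at 20.3 and 16.5 CPM in P3 and 34.0 CPM in P4. Its log2 fold change from P1 to P3 was 0.77 ± 0.50 (SE, edgeR adjusted p = 0.562), and the P3 libraries lay above the P1 libraries in both batches. Tagln was at 5.40 and 4.77 CPM in P2, 7.59 and 7.03 CPM in P3 and 13.2 CPM in P4. P4 stood above every library of P1 to P3 for Acta2, Tagln, Myh11 (4.67 CPM), Des and Rgs5 (1.70 CPM), but it is a single library without a replicate check. Lmod1 showed no such order, with 2.05 and 4.09 CPM in P1 and 1.47 and 2.59 CPM in P3.

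**Figure D4:**
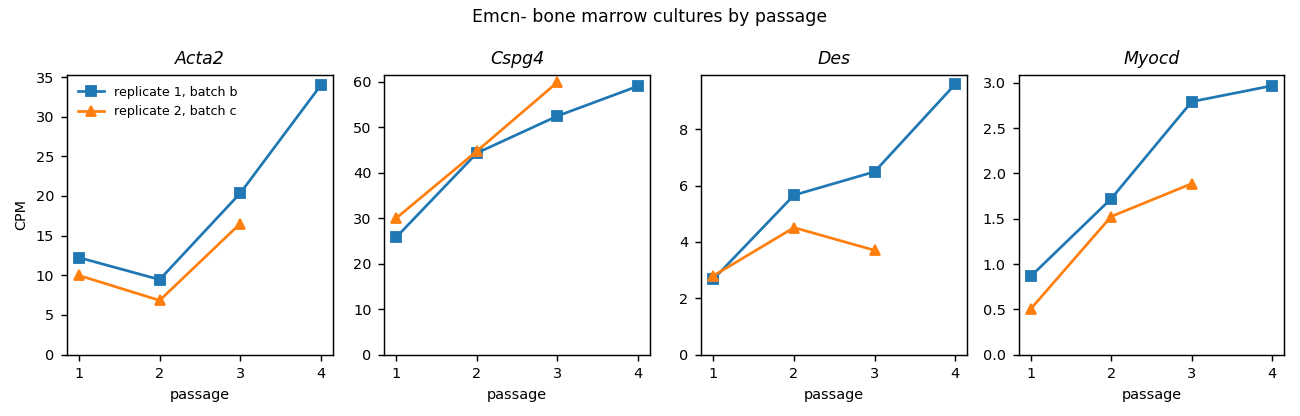
CPM (vertical axes, from 0) of Acta2, Cspg4, Des and Myocd by passage (horizontal axes) in Emcn- marrow cultures, with 1 line for replicate 1 (batch b, P1 to P4) and 1 for replicate 2 (batch c, P1 to P3). Cspg4 and Myocd were higher at every later passage in both lines, from 25.8 to 59.0 CPM and from 0.863 to 2.97 CPM in batch b.

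The factors that drive smooth muscle genes were followed in the same libraries. Myocd (myocardin) was at 0.0317 and 0.116 CPM in P0 Emcn+ BMECs, 0.0504 and 0.403 CPM in P0 Emcn- BMECs and 0.193 and 0.461 CPM in lung. It was at 0.863 and 0.502 CPM in P1, 1.72 and 1.52 CPM in P2, 2.79 and 1.89 CPM in P3, 2.97 CPM in P4 and 0.225 and 0.426 CPM in MSC. Its highest levels were in the late passages, and MSC, with the highest Acta2, was below every passaged library. In P3 and P4 Cnn1 was at 0.0370 CPM or lower and Actg2 at 0.148 CPM or lower. From the P1 mean to the single P4 library, Acta2 went from 11.1 to 34.0 CPM and Tagln from 4.99 to 13.2 CPM. Over these passages Myh11 went from 1.45 to 4.67 CPM, Des from 2.74 to 9.60 CPM and Cspg4 from 27.9 to 59.0 CPM. Rgs5 went from 0.668 to 1.70 CPM, while Lmod1 went from 3.07 to 1.92 CPM. The relation of Myocd to these genes was not tested. Myocd was lower in MSC than in passaged cells (log2 fold change -2.18 ± 0.64, SE, edgeR adjusted p = 0.0263), and its difference between P1 and P3 (1.80, edgeR adjusted p = 0.284) did not pass.

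Srf was at 56.9 and 68.0 CPM in P0 Emcn+ BMECs, 37.2 and 54.8 CPM in P0 Emcn- BMECs, 18.3 to 25.5 CPM in P1 to P3 and 40.9 and 40.5 CPM in MSC. Its adjusted p passed within the fold limit for P1 against P0 Emcn- BMECs (-0.74) and for MSC against passaged cells (0.81). Mrtfa (also Mkl1), a myocardin-related coactivator, ran from 28.3 to 63.3 CPM over all 15 libraries, and its lowest adjusted p over the 6 comparisons was 0.0836 (edgeR), in P0 Emcn+ against P0 Emcn- BMECs. Its relative Mrtfb (also Mkl2) was at 145 and 136 CPM in P0 Emcn+ BMECs and 68.0 and 50.2 CPM in P0 Emcn- BMECs (1.28, edgeR adjusted p = 0.000423, under the fold limit). Of the 8 regulators listed, 1 was called higher (Mef2c, 1.56) and 1 lower (Gata6, -3.11) in P0 Emcn+ BMECs.

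The actins were also compared per length, as CPM per kb of annotated exon sequence. The 4 muscle actins (Acta2, Actg2, the skeletal Acta1 and the cardiac Actc1) made up 17.3% and 22.6% of the sum over the 6 actins in the MSC libraries. In P0 Emcn- BMECs their share was 3.37% and 2.86%, in lung 4.25% and 4.70%, in P0 Emcn+ BMECs 0.154% and 0.546%, in P1 to P3 0.480% to 0.915% and in P4 1.35%. The MSC libraries stood apart from all others, and P0 Emcn- and lung libraries lay above all passaged and Emcn+ libraries. Acta2 supplied at least 93.6% of the muscle actin in every library.

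**Figure D5:**
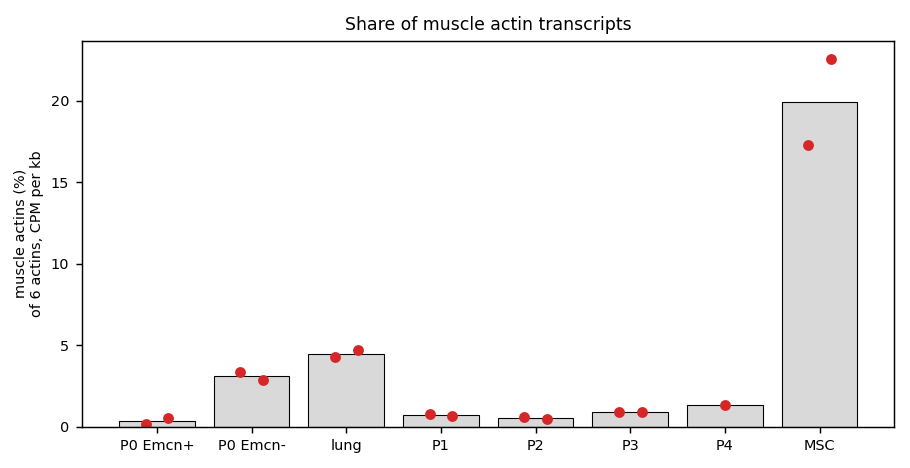
Share of the 4 muscle actins in the sum of 6 actins (vertical axis, percent of CPM per kb) in the 8 conditions (horizontal axis), with bars for the condition mean and points for the libraries. The MSC libraries were at 17.3% and 22.6%, and no other library exceeded 4.70%.

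Over the 8 conditions the nonmuscle actins differed far less than Acta2. Mean CPM per kb ran from 457 to 1256 for Actb and from 234 to 1092 for Actg1, against 3.71 to 415 for Acta2. Actb was at 3045 and 3684 CPM in P0 Emcn+ BMECs and 1738 and 1797 CPM in P0 Emcn- BMECs. Its log2 fold change of 0.96 and that of Actg1 (1.34) passed the adjusted p within the fold limit. Acta1 was at 1.26 and 1.19 CPM in MSC and at 0.403 CPM or lower elsewhere, and was called higher in MSC against P0 Emcn- BMECs (2.55, edgeR adjusted p = 0.0389). Actc1 was at 0.196 CPM or lower in every library and was not tested.

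Per kb, the mean levels in MSC were 415 for Acta2, 148 for Tagln, 20.6 for Actg2, 9.81 for Cspg4, 9.67 for Cnn1, 6.18 for Lmod1, 4.34 for Rgs5, 2.85 for Myh11 and 0.552 for Des. In P0 Emcn- BMECs Acta2 (34.5) and Tagln (21.6) led again, followed by Cspg4 (3.85) and Des (1.07), with the other 5 genes below 1 CPM per kb. Actin and transgelin thus stood well above the myosin heavy chain of the same apparatus in both conditions.

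Genes of striated muscle were measured as a neighbouring programme. The myogenic factors Myod1, Myf5 and Pax7 had no count in P0 Emcn+, P0 Emcn-, lung, P1, P3 or P4 libraries, and their highest level in any library was 0.183 CPM. Myog, another myogenic factor, had 2 counts in P0 Emcn- replicate 2 (0.202 CPM), 1 count in each MSC library and none elsewhere. The creatine kinase Ckm and the cardiac myosin Myh6 were at 0.127 CPM or lower throughout. Ttn (titin) had the highest level of the list, at 79.2 and 103 CPM in P0 Emcn+ BMECs and at 2.04 and 2.72 CPM in P0 Emcn- BMECs (log2 fold change 5.32, edgeR adjusted p = 0.000113), and it was at 1.12 CPM or lower in all other libraries. Actn3, the alpha-actinin of fast muscle fibres, was at 0.349 and 0.271 CPM in P0 Emcn+ BMECs, 2.06 and 5.24 CPM in P0 Emcn- BMECs and 3.41 to 7.03 CPM in P1 to P4, and was called lower in P0 Emcn+ BMECs (-3.45, edgeR adjusted p = 0.000533). Tnnt3, a troponin T, was called lower there too (-3.33, edgeR adjusted p = 0.00348), and Tnnt2 reached 3.78 CPM in lung replicate 2. Of the 10 striated muscle genes tested, 1 was higher and 2 were lower in P0 Emcn+ BMECs, and 5 were higher and 1 lower in MSC than in passaged cells. The summed level of the 18 striated muscle genes was 80.7 to 106 CPM in P0 Emcn+ BMECs and 4.94 to 12.3 CPM elsewhere. Ttn alone held 79.2 and 103 CPM of the sum in P0 Emcn+ BMECs, so the sum there does not describe the other genes of the list.

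Over the 8 conditions, the order of the levels differed between the genes. For Acta2 it was MSC, lung, P0 Emcn-, P4, P0 Emcn+, P3, P1 and P2, and only P0 Emcn+ and P3 (18.4 and 18.4 CPM) had overlapping ranges as neighbours. Tagln had the same order at the top, with overlapping ranges between lung (59.3 CPM), P0 Emcn- (42.9 CPM), P0 Emcn+ (38.0 CPM) and P4 (13.2 CPM) and between P2 and P1. Des began with P4 (9.60 CPM) and ended with MSC (2.07 ± 0.43 CPM, SD, n = 2) and P0 Emcn+ (0.255 ± 0.087 CPM, SD, n = 2). Cspg4 ran from MSC (117 ± 68.1 CPM, SD, n = 2) through P4, P3, P0 Emcn-, P2, P1 and lung to P0 Emcn+ (1.37 ± 0.463 CPM, SD, n = 2), and the ranges of P4, P3, P0 Emcn- and P2 overlapped from each to the next. For Myh11 and Rgs5 the MSC mean came first, but its range overlapped that of P4. P0 Emcn+ BMECs had the lowest mean for Myh11, Lmod1, Des, Cspg4 and Rgs5. For Cnn1 no lowest condition can be named, since P0 Emcn+, P0 Emcn-, P3 and P4 each held under 3 counts.

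As a description over the 8 condition means of log2(CPM + 1), which share batches and the high MSC point, Acta2 was most like Tagln within the group (Pearson's r = 0.96), Cnn1 most like Actg2 (0.97) and Myh11 most like Rgs5 (0.94). Des correlated with Acta2 by -0.07 and with Cspg4 by 0.71. Outside the group, among 12767 genes with at least 5 CPM in a condition mean, the nearest genes were Yipf5, Armcx3 and Slc30a6 for Acta2 (0.98 each), Coq3, Cacna1g and Golim4 for Myh11 (0.97 to 0.98), Fchsd1, Gng8 and Abcd3 for Cspg4 (0.98 each), and Cdsn and Wscd2 were among those nearest to Rgs5 (0.98 each). With 8 points and so many genes searched, high values occur in any case. The calcium channel gene Cacna1g, for example, was at 0.0352 CPM in P0 Emcn+ BMECs, 9.74 CPM in P3, 16.8 CPM in P4 and 71.1 CPM in MSC.

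Reads of related genes could affect some values. The share of 31-base words of a gene's transcripts that also occur in transcripts of another gene was 1.39% for Acta2, 1.21% for Actg2, 0.905% for Myh11 (mostly with the nonmuscle myosin Myh9) and under 0.2% for the other 6 genes. Tagln shares 62.4% of its exon bases with an antisense gene, Gm48529 (not analysed here), and 5.43% with Pcsk7 on the opposite strand. Whether counting used the strand is not given in the sources used here, so reads of Tagln and its antisense partner may not have been separated.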

How the data were processed

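Bulk RNA-seq libraries (KAPA RNA HyperPrep) were mapped by the authors to GRCm38 with STAR, quantified with Salmon on the Ensembl annotation and merged per gene with tximport in the nf-core RNASeq pipeline, and whole-number counts without normalization were deposited. Conditions, replicate numbers and batches came from the labels, and the sort of the lung cells from the methods. From these counts, edgeR 4.0.16 (R 4.3.3) with TMM factors, filterByExpr (minimum count 10) and the quasi-likelihood test was fitted on all 15 libraries with 1 coefficient per condition, and p-values were adjusted by Benjamini-Hochberg over 19401 genes. The fit was also run on simulated counts with known changes, and the outcome is not given here. Those counts were drawn with the spread fitted to these libraries, so the run cannot check that spread. The 9 genes, the gene lists and the comparisons were chosen with earlier results of these data known. From other lists, at most 4 called genes with the highest mean level per comparison are named, with the first 2 of the cell type lists, and SRF with its coactivators, the other actins and the striated muscle genes may be named in any condition. A ratio with 1 to 3 counts in a group is given with its exact 95% counting interval. Coordinates and exon lengths are from GENCODE M21 (GRCm38). Alternatives were RLE factors, DESeq2 1.42.0, ashr 2.2.63, other filters, a replicate block, only the compared conditions, only batch c, no fold limit and each library left out. Chi-square values of 42.5 to 141 per degree of freedom showed no pair of replicates within counting noise. Libraries with the same number share a batch, by the labels, among P0 and lung (correlations of their deviations 0.138 to 0.207 across genes) and among P1, P2 and P3 (0.355 to 0.456). The block adds a term for each of these batch pairs. It pairs no MSC library, but both MSC libraries carry the batch c value of its term, so their estimates shift with it. Some genes that the naming rule would give are not reported here.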

Additional observations from a re-analysis of the deposited data

How the results depend on the processing

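The comparisons of MSC kept their counts within 1.5 times under each alternative run, and P3 against P1 stayed at 0 called genes. With only the compared conditions fitted, 2 of the 9 genes were called in P0 Emcn+ against P0 Emcn- BMECs and 0 in lung against P0 Emcn- BMECs, and no value could be fitted for Cnn1 in 4 comparisons and Actg2 in P3 against P1; that fit holds fewer libraries. Leaving out 1 library gave 2 to 5 called genes in P0 Emcn+, 0 to 2 in lung and 0 to 2 in P1, each against P0 Emcn- BMECs. The lone library left in a condition was assumed to vary like the other conditions. Fold changes on the log2 scale that changed sign when 1 library was left out, none called in the full fit, ran from -2.98 to 0.76 for Tagln in P0 Emcn+ against P0 Emcn- BMECs. In lung against P0 Emcn- BMECs they ran from -1.01 to 0.84 for Myh11, -0.37 to 0.0037 for Des, -1.79 to 0.050 for Rgs5 and -1.25 to 1.28 for Actg2. In P1 against P0 Emcn- BMECs they ran from -0.45 to 4.17 for Cnn1, -0.061 to 2.34 for Lmod1 and -1.51 to 0.34 for Rgs5, and in P3 against P1 from -0.20 to 1.39 for Myh11 and -0.47 to 1.26 for Rgs5. The cause was not tested.

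With the replicate block, Myh11 in lung against P0 Emcn- BMECs was -0.14 in place of 0.17, and 3 genes in place of 2 were called there. Beside the calls of Lmod1, Myh11 and Actg2 given with the results, the block changed no other call. Cnn1 and Actg2 had 5 counts or fewer in P1, P2, P3 and P4, and their values there carry wide counting error.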
